A study of Homo sapiens with 4 samples.

Results

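The outermost 1 Mb at both ends of each human chromosome was examined in ATAC-seq peak lists of pancreatic progenitors, and 2623 of 164066 accessible regions lay there. Peaks of the 4 deposited lists on chromosomes 1 to 22 and X were merged where they overlapped by at least 1 bp, and all merged regions with a midpoint within 1 Mb of either end of the hg38 chromosome were kept, whatever their calls. Of the 46 chromosome ends, 41 had known sequence in that window, and the 5 short arms without it (chromosomes 13, 14, 15, 21 and 22) gave no region. The study compared pancreatic progenitors derived from MEL1, an established human embryonic stem cell line (in the study's methods MEL1 INS GFP/W, with GFP in 1 copy of the insulin gene), cultured for 7 days with DMSO or with 1 μM I-BET151, an inhibitor of the BET bromodomain proteins that read acetylated histones. Both groups were kept in the same EF6 medium, which is DMEM with B27, EGF, bFGF and 616452, an inhibitor of the TGFβ receptor. There were 2 ATAC-seq libraries per group, each from 50000 cells. All libraries come from 1 cell line, and no label says that they come from separate cultures, so the spread between them may be technical.

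Human chromosomes end in telomeres, long arrays of the hexamer TTAGGG that are read as CCCTAA on the forward strand of a short arm. Just inside lie the subtelomeres, patchworks of recently duplicated segments shared by several chromosomes, with gene families such as the olfactory receptors, WASH and DUX4, minisatellites (tandem arrays of a short unit) and CpG-rich repeats from which telomeric RNA is transcribed. Farther in, many ends are rich in GC, in genes and in promoters. Because copies of these segments resemble each other, short reads from one end can be placed at another, and the end at which a read of a repeat was placed is uncertain.

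Each list gives, per peak, the fold enrichment (reads at the summit over the local background, with 1 read added to both). Depth and calling differed between lists, so a region was described by the lists that called it and by its percentile of fold enrichment in each. The lists held 82524 and 38151 peaks with DMSO and 84923 and 111203 with I-BET151, from an estimated 38.7 and 36.6 M reads with DMSO and 12.5 and 16 M reads with I-BET151 (M, 1e6 reads), so depth and treatment cannot be told apart. In bulk samples, fewer cells with an open region and a less open region per cell cannot be told apart either. The promoters of 8 of 8 pancreatic progenitor markers were called in at least 1 list (PDX1 with I-BET151 only), against 1 of 4 pluripotency markers (DPPA4, in 1 list), 2 of 4 endocrine markers, and none of the 4 blood and 4 erythroid markers.

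Sequences are shown for regions whose calls differed between groups, as forward-strand hg38 sequence around the summit. The first set are tandem arrays inside genes or between them that were called with DMSO but not with I-BET151. Capitals mark 1 unit of the array, found as the smallest shift at which the sequence matches itself, with units of 29, 59 and 30 bp.
Intron of EHMT1, chr9:137716298-137716398: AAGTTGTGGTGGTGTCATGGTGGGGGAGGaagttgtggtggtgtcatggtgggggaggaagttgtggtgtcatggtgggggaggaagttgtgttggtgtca
Intron of AP2A2, chr11:965055-965155: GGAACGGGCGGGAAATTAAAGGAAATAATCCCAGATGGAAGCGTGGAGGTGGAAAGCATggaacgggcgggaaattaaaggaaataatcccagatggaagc
Between genes on the long arm of chromosome 4, chr4:189490918-189491018: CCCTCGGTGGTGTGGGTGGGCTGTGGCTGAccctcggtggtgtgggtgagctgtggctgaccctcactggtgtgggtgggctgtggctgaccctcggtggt

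Other summits are shown with CpG in capitals. The first is a CpG-rich repeat close to the last known base of chromosome 11. It is no contrast to the arrays above, as it also repeats itself and narrowly missed the tandem-repeat rule given below (77.9% identity). It resembles summits on the long arms of chromosomes 2 and 4 that met the rule with a unit of 29 bp. Its region was called in I-BET151 replicate 1 alone, on 7 reads. The other 2, shown for contrast, are introns of GLB1L2 and FRG1 whose regions were called with I-BET151 only.
Long arm of chromosome 11, chr11:135076209-135076309: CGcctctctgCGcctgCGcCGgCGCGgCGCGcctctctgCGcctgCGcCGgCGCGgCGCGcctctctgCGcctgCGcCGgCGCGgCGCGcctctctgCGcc
Intron of GLB1L2, chr11:134360451-134360551: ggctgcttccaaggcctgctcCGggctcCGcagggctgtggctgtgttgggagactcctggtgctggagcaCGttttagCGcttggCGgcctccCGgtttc
Intron of FRG1, chr4:189959957-189960057: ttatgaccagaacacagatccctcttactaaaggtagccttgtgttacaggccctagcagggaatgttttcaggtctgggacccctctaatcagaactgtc

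Regions near the ends were gained less often and lost more often with I-BET151 than regions in the rest of the genome. Gained regions, those that both I-BET151 lists and neither DMSO list held, numbered 293 at the ends (11.2%), against 17.0% of all regions and 17.1% of the rest. A region was counted as lost when both DMSO lists and no I-BET151 list called it. This held for 147 end regions (5.60%), against 2.37% of all regions and 2.32% of the rest. All 4 lists called 490 end regions (18.7%), against 15.6% of all regions and of the rest. The end regions had a median GC content of 59.2% in the 201 bases around the summit, against 47.8% in the rest, and 16.7% of them were promoters (summit within 1 kb of a transcription start site), against 8.39%. At the GC content of the ends the rest of the genome had 14.2% gained and 3.19% lost, and at their mix of promoters, gene bodies and intergenic regions it had 16.5% and 2.16%, both comparisons chosen after the values were seen. The share called in all 4 lists turned in direction, since in the rest it was 26.9% at the GC content and 20.1% at the mix of the ends, against 18.7% at the ends. Over all end regions, the direction of the gained and lost differences was the same in every setting tried. It was not the same in every stratum. Above 65% GC, 15.8% of end regions and 15.6% of the rest were gained, while at every lower GC content the ends were below the rest. Promoters at the ends were gained more often (14.4%, against 10.7%), and gene bodies and intergenic regions less often. Up to 40% GC, 0% of end regions and 0.293% of the rest were lost, and above it the ends had more. A group of 1 list is easier to match than one of 2, and the gained count was 712 without I-BET151 replicate 1 and 541 without I-BET151 replicate 2, while the lost count was 270 without DMSO replicate 1 and 815 without DMSO replicate 2.

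The share of a list that lay near the ends was lower with I-BET151. It was 1.99% and 2.31% in the DMSO lists (1639 and 883 peaks) and 1.43% and 1.34% in the I-BET151 lists (1216 and 1485 peaks). The groups did not overlap, and the difference was −0.767 percentage points. The exact permutation test (two-sided) gave p = 0.333, the smallest value that 2 against 2 libraries allow. The end peaks that were called stood higher in the I-BET151 lists. Their median percentile of fold enrichment was 37.3 and 42.3 in the DMSO lists, below the 50 of a whole list, and 52.4 and 52.2 in the I-BET151 lists (difference 12.5, p = 0.333, exact permutation test).

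Libraries with the same number, which no label says were made together, gave different balances. Between the replicate 1 libraries, 526 end regions had a call with I-BET151 alone and 934 with DMSO alone. Between the replicate 2 libraries, the numbers were 893 and 275. In the rest of the genome they were 45623 and 43097 for replicate 1, against 78883 and 5926 for replicate 2. For both replicates the I-BET151-only share of the changed regions was thus lower near the ends (36.0% and 76.5%) than in the rest (51.4% and 93.0%). Single lists also weighed on these counts, since 648 end regions (24.7%, against 18.0% of the rest) were called in DMSO replicate 1 alone.

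**Figure D1:**
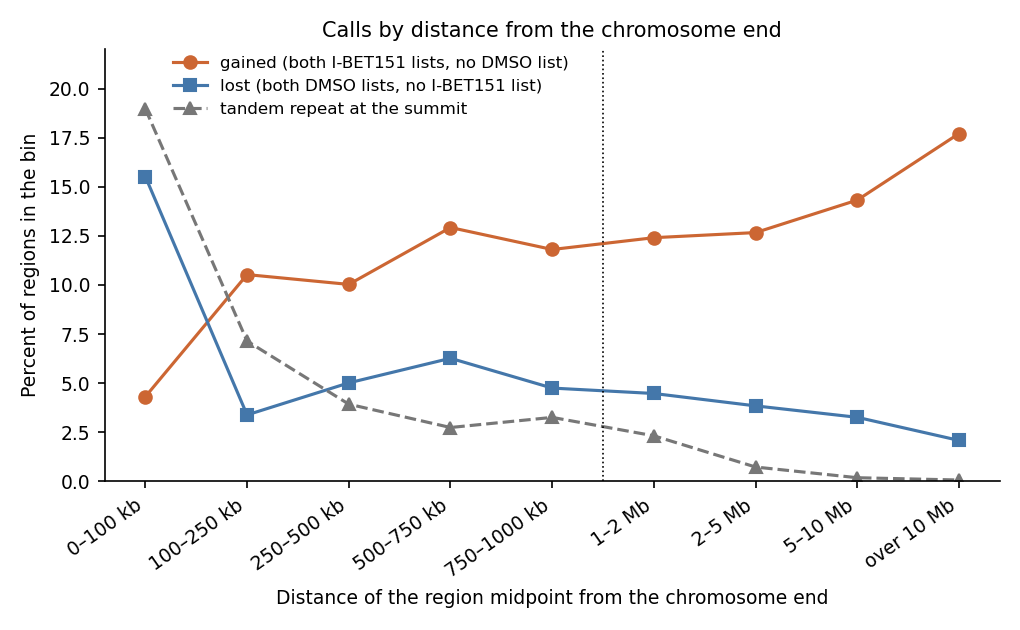
Percent of merged regions (vertical axis) in bins of distance from the chromosome end (horizontal axis, bins of unequal width) that were gained, lost or held a tandem repeat at the summit, from the 4 lists, with a dotted line at 1 Mb. Lost regions and tandem repeats peaked in the first 100 kb, at 15.5% and 18.97%, while gained regions were lowest there, at 4.31%.

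The contrast was steepest in the outermost 100 kb and did not stop at 1 Mb. Among the 116 regions within 100 kb of an end, 5 were gained (4.31%) and 18 were lost (15.5%). From 100 to 250 kb, 10.5% were gained and 3.38% lost, and from 750 to 1000 kb 11.8% and 4.75%. The 3063 regions between 1 and 2 Mb from an end, outside the members, had 12.4% gained and 4.47% lost. Beyond 10 Mb the shares were 17.7% and 2.08%. Just inside the limit lay the promoter region of DLG1, a scaffold protein of cell junctions, at 997 kb, with a fold enrichment of 6.94 and 5.48 with DMSO and 7.60 and 6.26 with I-BET151, at percentiles of 93.5 and 77.9 with DMSO and 74.6 and 52.2 with I-BET151. Just outside it lay a region at GRTP1, a GTPase regulator, with a fold enrichment of 2.94 and 2.91 with DMSO and 4.66 and 7.25 with I-BET151, at percentiles of 8.64 and 8.58 with DMSO and 28.9 and 64.1 with I-BET151.

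Most chromosome ends shared the direction. The share of the list was lower in both I-BET151 lists than in both DMSO lists at 36 of the 41 ends, higher at 2 and overlapping at 3. The ends held between 4 regions (long arm of chromosome 14, at the immunoglobulin heavy chain locus) and 112 regions (short arm of chromosome 16, at the alpha globin locus), with a median of 70. Gained regions still outnumbered lost ones at 35 ends, and the numbers were equal at 3. Lost regions were more numerous at 3 ends, the short arm of chromosome 2 (8 lost, 6 gained), the long arm of chromosome 4 (6 lost, 1 gained) and the long arm of chromosome 14 (1 lost, 0 gained). The long arm of chromosome 22 had the most gained regions, 16 of 97.

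**Figure D2:**
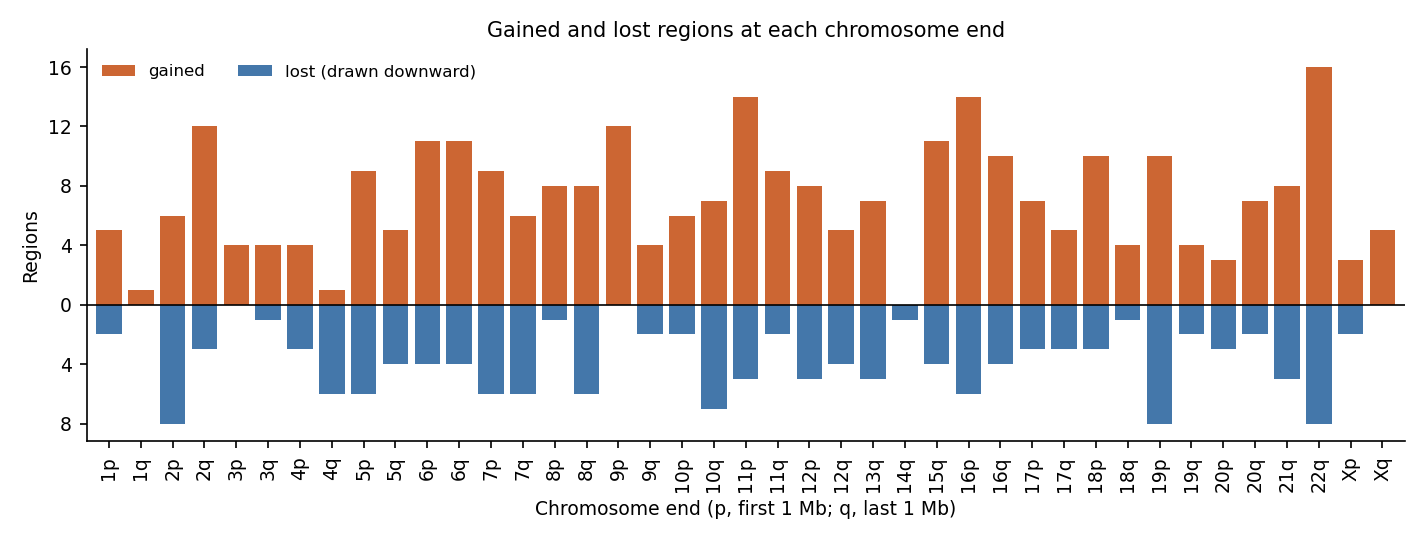
Number of gained regions (upward bars) and lost regions (bars drawn downward) in the 1 Mb at each of the 41 chromosome ends with known sequence, from the 4 lists. Gained regions outnumbered lost ones at 35 ends, and the reverse held at 2p, 4q and 14q.

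At the very tips, telomere-repeat regions were called more often and stood higher with DMSO than with I-BET151. Terminal regions, a set defined after the values were seen, have a summit within 1 kb of the last known base of a chromosome. There were 23 at 21 ends, and 19 of them held at least 4 TTAGGG or CCCTAA hexamers in a row in the 201 bases around the summit. Of these 19, 17 and 18 were called in the DMSO lists and 10 and 11 in the I-BET151 lists (p = 0.333, exact permutation test). Both DMSO lists called 16 and both I-BET151 lists 10. Of the 19 regions 5 were lost and 0 were gained, against 2.37% and 17.0% of all regions. The DMSO lists called 47.9% and 22.9% of all regions and the I-BET151 lists 49.2% and 67.7%.

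The 3 regions nearest to an end were called with DMSO only. That on the long arm of chromosome 7 (chr7:159335893-159336126, 9.96 kb from the nominal end, which is unknown sequence in hg38) had a fold enrichment of 5.05 in DMSO replicate 2. On the long arm of chromosome 21 (chr21:46699881-46700129) the value was 8.42 in DMSO replicate 2. The region on the long arm of chromosome 2 (chr2:242183353-242183712) had 8.80 and 17.1 in the DMSO lists. None of the 3 was called in either I-BET151 list, and the first 2 rest on a single library.

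Of the outermost regions called in all 4 lists, that on the long arm of chromosome 13 (chr13:114354090-114354500, between genes, 39729 bp from the start of CHAMP1) had a fold enrichment of 19.9 and 32.9 with DMSO and 7.80 and 7.95 with I-BET151. Its rank was lower with I-BET151 (limma difference −3.90, SE 0.386, adjusted p = 0.000333). The limma values are differences between normal scores, made from each library's ranks among the 25612 shared regions (called in all 4 lists). A unit is 1 SD of these scores, not of the ranks, and near the top it spans few percentiles. In the region named next, a difference of −0.94 went with mean percentiles of 99.98 with DMSO and 99.82 with I-BET151. The region on the long arm of chromosome 12 (chr12:133264861-133265435) had 26.4 and 29.6 with DMSO and 16.7 and 23.6 with I-BET151, which did not pass (limma difference −0.94, SE 0.438, adjusted p = 0.196). It was the end region with the highest mean percentile over the 4 lists. On the short arm of chromosome 10 (chr10:9935-10508) the values were 23.7 and 28.1 with DMSO and 12.5 and 20.0 with I-BET151 (limma difference −1.61, adjusted p = 0.0541). In all 3 regions both I-BET151 values were below both DMSO values.

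By the limma difference, the largest fall in rank among the shared end regions was at the tip of the short arm of chromosome 1 (chr1:9928-10529). Its fold enrichment was 12.9 and 27.3 with DMSO and 5.20 and 6.36 with I-BET151, that is a percentile of 99.9 and 99.96 against 43.7 and 53.8 (limma difference −4.22, SE 0.383, adjusted p = 0.000197). The short arms of chromosome 12 (chr12:9921-10601, limma difference −2.62, adjusted p = 0.00558) and chromosome 3 (chr3:9917-10864, −2.56, adjusted p = 0.0164) fell as well, as did the long arms of chromosomes 1 and 18. Over the 19 regions, 6 of the 10 that all 4 lists called were lower by limma and 0 were higher, against 1.97% and 3.42% of all shared regions. The median fold enrichment of these 10 was 20.4 and 28.9 with DMSO and 10.7 and 18.2 with I-BET151, a ratio of 1.71 (p = 0.333, exact permutation test). The shared region over the tip of the short arm of chromosome 5, whose summit lay 1143 bp in, was outside this set and did not pass (limma difference −0.99, adjusted p = 0.400).

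Depth and the added read moved with this difference. In the 10 shared terminal regions the median number of summit reads per M estimated reads was 2.61 and 8.77 with DMSO and 1.65 and 3.06 with I-BET151, and the groups overlapped. The median background was 4.24 and 9.41 reads with DMSO and 0.923 and 1.75 with I-BET151, so the read added to both lowers the fold most in the I-BET151 libraries. Without it, reads over background had a median of 25.1 and 31.7 with DMSO and 20.6 and 28.0 with I-BET151, and the groups overlapped. Ranked in this way, 4 of the telomere-repeat end regions were lower in rank by limma, against 8 with the fold enrichment as deposited and 15 without I-BET151 replicate 2.

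**Figure D3:**
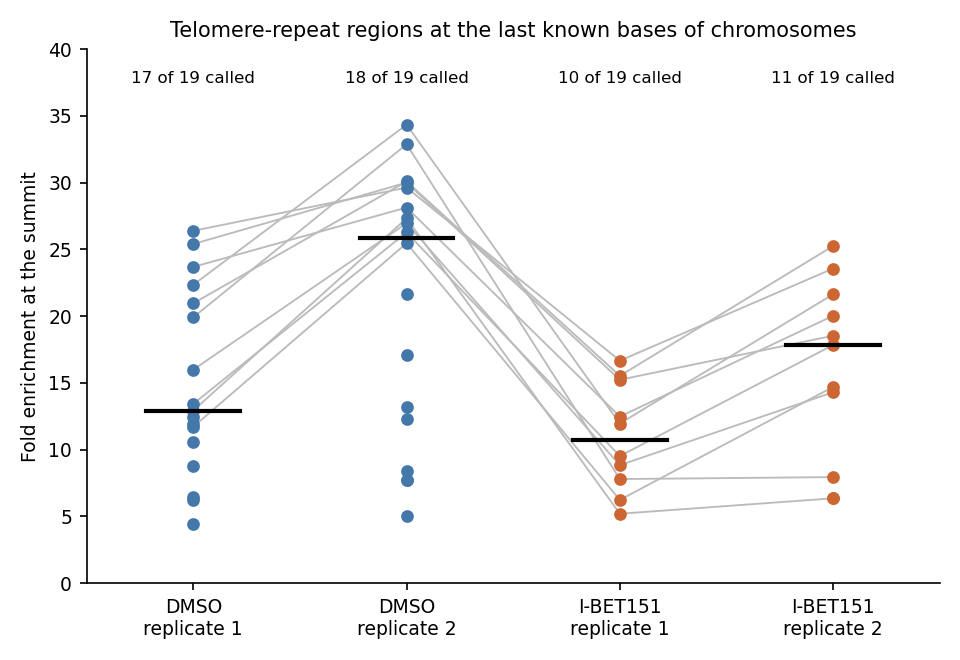
Fold enrichment at the summit (vertical axis) of the 19 terminal telomere-repeat regions in each of the 4 libraries (horizontal axis). Points are called regions, grey lines join the 10 regions called in all 4 lists, and black bars are medians over called regions, 12.9 and 25.9 with DMSO and 10.7 and 17.8 with I-BET151.

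The 4 terminal regions without telomere repeats were called in other lists. All had a GC content above 80% around the summit, as in the CpG-rich sequence of chromosome 11 printed above, and all 4 were called in I-BET151 replicate 1. The region on the long arm of chromosome 2 (chr2:242182509-242182810) was also called in DMSO replicate 1, with a fold enrichment of 6.98, against 7.28 in I-BET151 replicate 1. The other 3, on the long arms of chromosomes 11 and 4 and the short arm of chromosome 4, were called in that library alone, at 4.16 to 6.24. Those on the long arms of chromosomes 2 and 4 met the tandem-repeat rule given below, with a unit of 29 bp (83.8% and 80.1% identity). The long arm of chromosome 11 (77.9%) and the short arm of chromosome 4 (79.4%) fell just short of its 80%. Unlike the tandem repeats below as a set, these 4 were not called more often with DMSO.

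Telomere repeats farther in included 2 regions that fell by limma. Among all regions, 29 held them (0.0177%), of which 28 were near an end. Of the 9 that were not terminal, all 4 lists called 5, and in 4 of these both I-BET151 percentiles were below both DMSO percentiles, against 10.3% of all shared regions. One lay in an intron of BET1L, which encodes a Golgi SNARE (chr11:175274-176113), with a fold enrichment of 13.5 and 21.9 with DMSO and 5.72 and 9.93 with I-BET151 (limma difference −3.45, adjusted p = 0.00111). A region 50850 bp from DUX4, the gene of facioscapulohumeral dystrophy (chr4:190122470-190123204), had 22.02 and 27.1 with DMSO and 13 and 15.5 with I-BET151 (limma difference −2.01, adjusted p = 0.0122). The other 3 did not pass. The adjusted p was 0.0503 for an intron of PCMTD2 (chr20:64286651-64287665) and 0.0676 for a region on the long arm of chromosome 3 (chr3:198173179-198174531), both with limma. The region on chromosome 5 (chr5:9991-11805) covered the tip of the short arm. Its summit lay 1143 bp from the last known base, outside the 1 kb limit of the terminal set. There the order was mixed, with 6.17 and 21.0 with DMSO and 7.04 and 17.4 with I-BET151 (limma difference −0.99, adjusted p = 0.400). The single such region in the rest of the genome, in CFDP1 on chromosome 16, was called in DMSO replicate 1 alone at 3.53.

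Other tandem repeats were also called more often with DMSO, near the ends and in the rest of the genome. A tandem repeat, also defined after the values were seen, is a 301-base window around the summit that is at least 80% identical to itself shifted by 5 to 100 bases. With the telomere repeats, 125 end regions at 38 ends held a repeat (4.77%, against 0.155% of the rest), so that 33.2% of the 376 repeat regions lay near an end although 1.60% of all regions did. Of the 97 without telomere repeats 42 lay in a gene, and their unit was 16 to 97 bp long, with a median of 42. The 125 regions were called 63 and 106 times in the DMSO lists (50.4% and 84.8%) and 28 and 40 times in the I-BET151 lists (22.4% and 32.0%). The 251 repeat regions of the rest showed nearly the same shares, 40.6% and 82.1% with DMSO and 15.5% and 29.5% with I-BET151. The 97 end regions without telomere repeats were called 39 and 80 times with DMSO and 13 and 22 times with I-BET151. Of all end regions, the DMSO lists called 58.7% and 32.9% and the I-BET151 lists 43.2% and 56.5%. Against these shares, repeat end regions were called more often in DMSO replicate 2 only, and less often in DMSO replicate 1 and both I-BET151 lists.

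**Figure D4:**
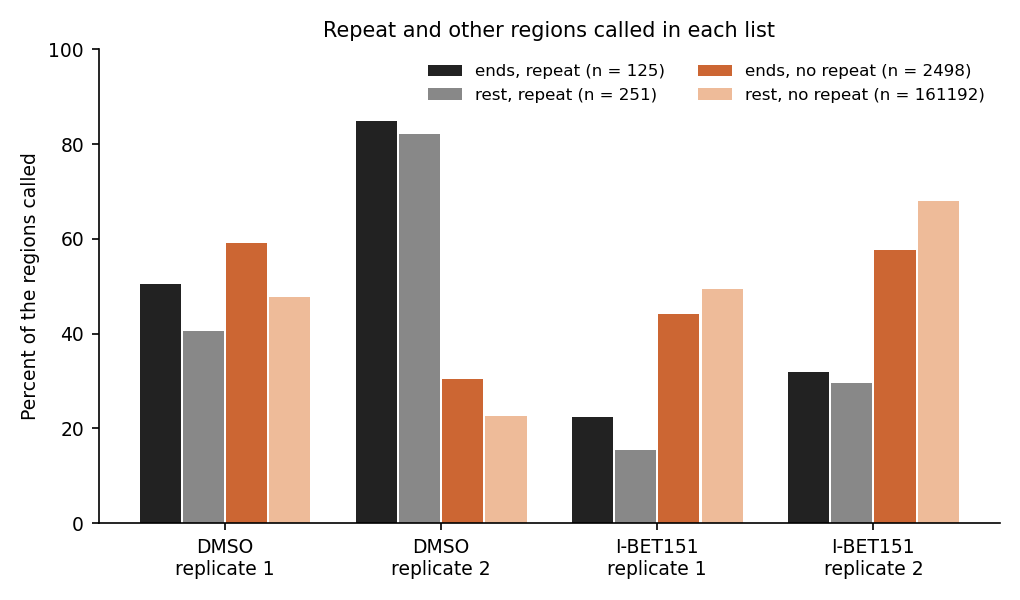
Percent of regions called (vertical axis, from 0) in each of the 4 lists (horizontal axis), for regions with a telomere or tandem repeat near the ends (n = 125) and in the rest (n = 251) and for regions without one (n = 2498 and n = 161192). Repeat regions were called most often in DMSO replicate 2, at 84.8% and 82.1%, and least often in I-BET151 replicate 1, at 22.4% and 15.5%.

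Among the repeat members 22 were lost (17.6%) and 1 was gained (0.80%). DMSO lists alone called 82 of them and I-BET151 lists alone 8. The library DMSO replicate 2 stood apart here, as it alone called 121 end regions of which 49 held a tandem repeat. Without DMSO replicate 1 the lost repeat members numbered 75, and without DMSO replicate 2 they numbered 35. Of the 24 that all 4 lists called, both I-BET151 percentiles were below both DMSO percentiles in 18 (75.0%) and above in 0, while in the rest of the genome they were below in 6 of 21 (28.6%). Limma called 11 of the 24 lower and 0 higher (7 lower without DMSO replicate 2, 21 without I-BET151 replicate 2), against 5 of 21 lower in the rest. The difference between the ends and the rest was not tested. End regions without a repeat were still lost more often than the rest of the genome, 125 of 2498 (5.00%) against 2.29% of such regions in the rest.

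The 8 strongest lost regions, chosen by the lower of both DMSO values, were all tandem arrays or telomere repeats. The tips of the long arm of chromosome 15 (chr15:101980821-101981337) and the short arm of chromosome 7 (chr7:9947-10304) led, with a fold enrichment of 11.9 and 13.2 and of 10.6 and 12.3 with DMSO. The tips of the long arms of chromosomes 2 and 19 and of the short arm of chromosome 4 were also among them. The other 3 were the minisatellites printed above. That in an intron of EHMT1, which encodes a histone H3 lysine methyltransferase (chr9:137716077-137716566), had 9.19 and 10.7. In an intron of AP2A2, a subunit of the clathrin adaptor (chr11:964859-965321), the values were 6.41 and 7.76. The array between genes on chromosome 4 (chr4:189490611-189491923) had 6.34 and 5.90.

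Across the 490 end regions called in all 4 lists, ranks moved both ways. Promoters were 11 of the 19 regions that rose (57.9%), near their share of the 490 (50.8%). Repeats were 11 of the 16 that fell (68.8%, against 4.90% of the 490). Both I-BET151 percentiles were above both DMSO percentiles in 241 of the 490 (49.2%, against 40.8% of all 25612 shared regions). They were below in 55 (11.2%, against 10.3%). Limma called 19 higher (3.88%, against 3.42% of all) and 16 lower (3.27%, against 1.97%) at an adjusted p under 0.05. Of the 16 lower regions 11 held a repeat, against 5 of 489 in the rest of the genome. Repeats were scarcer in the rest, with 21 of its 25122 shared regions (0.0836%), against 24 of the 490. Of the shared repeat regions, limma called 45.8% lower near the ends and 23.8% in the rest. When repeat regions were left out of the fit, 5 end regions were lower. The counts rested on single libraries. The higher count was 3 without DMSO replicate 1, 9 without DMSO replicate 2 and 39 without I-BET151 replicate 2, and the lower count was 43 without I-BET151 replicate 2. Ranked by −log10 p in place of fold, 0 end regions were higher.

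**Figure D5:**
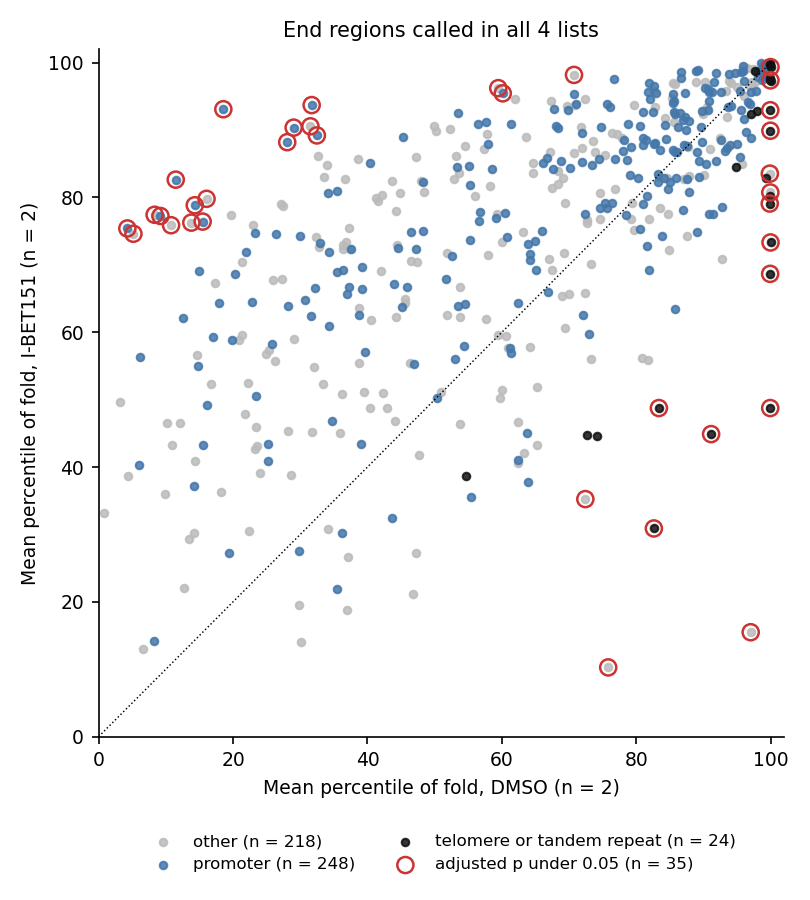
Mean percentile of fold enrichment in the I-BET151 lists (vertical axis, n = 2) against the DMSO lists (horizontal axis, n = 2) for the 490 end regions called in all 4 lists, split into telomere or tandem repeats (which include a promoter), other promoters and the remainder, with a dotted line where both are equal. Red rings mark the 35 regions past limma's adjusted p of 0.05, of which 19 lay above the line and 16 below, 11 of them repeats.

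The 2 regions with the largest limma rise were the promoters of PRPF6 and MRPL28. The promoter of PRPF6, a splicing factor of the tri-snRNP (chr20:63980700-63981569, summit 42 bp from the start site), had a fold enrichment of 3.25 and 3.14 with DMSO and 11.8 and 11.99 with I-BET151 (limma difference 2.25, SE 0.382, adjusted p = 0.0078). At MRPL28, a protein of the mitochondrial ribosome (chr16:370461-370911, 184 bp upstream of the start site used), the values were 3.67 and 3.29 with DMSO and 10.2 and 15.5 with I-BET151 (limma difference 2.14, adjusted p = 0.0130). In both regions both I-BET151 values were above both DMSO values. The promoters of RASA3 (a Ras GTPase-activating protein), ZMYND19, WDR90 (a centriole protein) and DGAT1 (an enzyme of triglyceride synthesis) rose as well, with limma differences of 2.04, 1.997, 1.87 and 1.72. Those of HRAS, TFDP1, ZBTB45, ZNF517 and ZNF544 passed with differences between 1.41 and 1.59.

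Inside genes, an intron of GAS6, the ligand of the TAM receptors (chr13:113837383-113838159), had 2.95 and 2.55 with DMSO and 7.46 and 8.62 with I-BET151 (limma difference 1.95, adjusted p = 0.0149). An intron of VIPR2, a receptor of vasoactive intestinal peptide (chr7:159030552-159031609), had 3.06 and 2.74 with DMSO and 7.32 and 9.63 with I-BET151 (limma difference 1.80, adjusted p = 0.0188). Among the 249 end promoters called in all 4 lists, 11 were higher and 0 lower by limma (254 and 90 of 8981 in the rest). End promoters were gained in 63 of 437 cases (14.4%, against 10.7% of the promoters of the rest) and lost in 7 (1.60%, against 0.797%). Intergenic end regions were lost in 70 of 873 cases (8.02%, against 2.59%).

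Falls in rank outside repeats were few. A region 43202 bp from RFLNB, which encodes the filamin-binding refilin B (chr17:488931-490059), had a fold enrichment of 7.56 and 10.3 with DMSO and 4.51 and 3.36 with I-BET151 (limma difference −3.78, SE 0.471, adjusted p = 0.00165). A region 62638 bp from FRG2B, a subtelomeric duplicated gene (chr10:133688014-133689795), had 15.3 and 24.7 with DMSO and 8.32 and 9.54 with I-BET151 (limma difference −3.26, adjusted p = 0.00107). An intron of FOXK2, a forkhead transcription factor (chr17:82586079-82586635), had 12.3 and 21.7 with DMSO and 8.72 and 10.1 with I-BET151 (limma difference −2.75, adjusted p = 0.00306). The other 2 lay in introns of FARP2 and RASA3, with limma differences of −2.50 and −1.55, and RASA3 also held a promoter and another intronic region (1.45) that rose.

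Gained regions carried no repeats among the strongest 8, which were chosen by the lower of both I-BET151 values. The first lay in an intron of GLB1L2, a galactosidase-like gene (chr11:134359987-134360731), with a fold enrichment of 10.1 and 11.1 with I-BET151. Promoters of SBF1, a myotubularin-related protein (chr22:50474998-50475534, 9.95 and 10.9), and of ZNF417, a zinc-finger gene (chr19:57916521-57917030, 9.88 and 13.9), followed. A region in an untranslated exon of PLEKHG4B (chr5:188559-189071) had 9.81 and 9.90, and one between genes on chromosome 2 (chr2:529426-529793), nearest to TMEM18, had 9.72 and 10.2. Introns of VAMP7, a vesicle SNARE (9.69 and 11.2), FRG1 (9.36 and 18.3) and TBCD, a tubulin-folding cofactor (9.02 and 10.6), completed the set. The values rest on 17 to 36 reads in I-BET151 replicate 1 and on 27 to 62 in I-BET151 replicate 2.

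Strong regions at the ends were not all repeats. Of the 5 shared regions with the highest mean percentile 3 were telomere repeats, at the long arms of chromosomes 12, X and 18, and 2 were promoters. The promoter of PDCD6, a calcium-binding protein (chr5:271263-271900, in an untranslated exon), had a fold enrichment of 13 and 14.2 with DMSO and 18.6 and 19.9 with I-BET151 (limma difference −0.12, adjusted p = 0.877). The promoter of ZNF141, a zinc-finger gene (chr4:337092-337999), had 12.6 and 11.3 with DMSO and 18.4 and 16.8 with I-BET151 (limma difference −0.23, adjusted p = 0.770). Both were near the top of every list, and their fold enrichment did not overlap between groups while their rank did not pass the test. The telomere repeat of the long arm of chromosome X (chrX:156029986-156030864) had 21.0 and 30.1 with DMSO and 15.5 and 25.3 with I-BET151 (limma difference −0.73, adjusted p = 0.335). That of the long arm of chromosome 18 (chr18:80262828-80263401) had 25.4 and 30.0 with DMSO and 15.2 and 18.5 with I-BET151 (limma difference −1.56, adjusted p = 0.0338).

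Over all 41 ends, the outermost region of each held telomere repeats at 24 ends and was a promoter at 4. None of these 41 outermost regions was gained (17.0% of all regions were) and 5 were lost (2.37% of all). Of the 41, 13 were called in no I-BET151 list and 4 in no DMSO list. Of all end regions, 24.7% were called in DMSO replicate 1 alone, 4.61% in DMSO replicate 2 alone and 5.60% in both DMSO lists alone. For I-BET151 the shares were 7.66%, 15.9% and 11.2%, in the same order. Added up, these shares put the 13 near the share of all end regions and the 4 below it. At the 40 ends with a region called in all 4 lists, the outermost such region was lower by limma at 11 and higher at 0. Of all shared regions, 1.97% were lower and 3.42% higher. Among the 11, 10 held a repeat.

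Gene families of the ends differed widely in how many of their promoters were called. Of the 661 protein-coding genes with a start site in the window, 460 had a promoter region in at least 1 list. The zinc-finger genes, many in the cluster at the long arm of chromosome 19, had one at 48 of 57 genes, of which 42 were called in all 4 lists. Of the 57 genes 2 rose by limma (ZNF517 and ZNF544), 0 fell, 2 were gained (ZNF417 and ZNF587B) and 0 were lost. Of the 42 called in all 4 lists, both I-BET151 percentiles were above both DMSO percentiles in 26 and below in 4, against 40.8% and 10.3% of all shared regions. Among all 249 shared end promoters they were above in 136 (54.6%) and below in 25 (10.0%), so the zinc-finger promoters lay close to end promoters in general. By contrast, 0 of 40 olfactory receptor genes had a promoter region in any list, and 2 of 117 immunoglobulin heavy variable genes, both in DMSO replicate 1 alone. Among 112 genes of subtelomeric duplicated families, those called were FRG1 and its divergent transcript FRG1-DT, which share 1 region at percentiles of 81.4 and 71.9 with DMSO and 96.6 and 98.5 with I-BET151 (adjusted p = 0.0632, limma). The families were chosen by gene symbol and can hold genes that do not code for protein, such as FRG1-DT. Their shares are therefore not directly comparable with that of the 661 protein-coding genes.

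Housekeeping promoters were nearly all shared. Of 17 listed genes 17 were called, 16 in all 4 lists, with PRPF6 higher by limma and SDHA, a subunit of succinate dehydrogenase, gained at a region it shares with CCDC127. TBP and PSMB1, which share a bidirectional promoter region, stood at percentiles of 99.7 and 98.4 with DMSO and 99.0 and 96.7 with I-BET151. The genes of chromatin proteins followed, with 8 of 8 called and 7 in all 4 lists. EHMT1, whose intronic minisatellite was lost, had a gained promoter region, at percentiles of 50.2 and 56.3 with I-BET151.

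At the alpha globin locus on the short arm of chromosome 16, the promoters of HBZ, HBM, HBA2 and HBA1 were called in no list. NPRL3, whose introns hold the globin enhancers, had a promoter region at a percentile of 71.5 in DMSO replicate 1 and of 86.2 and 90.5 with I-BET151, and was not called in DMSO replicate 2. HBQ1 was called in the same 3 lists. All 6 neighbouring genes had a promoter region, 4 of them in all 4 lists and that of MPG, a DNA glycosylase, gained. Of the 7 pseudoautosomal genes of chromosome X, 5 were called and all 5 in the 4 lists, none past limma's threshold, while SHOX and IL9R were not called.

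Of 16 developmental and endocrine genes in the window 7 had a promoter region, against 460 of all 661 protein-coding genes there. It was called in all 4 lists for 1 (SOX12) and gained for 3 (FGF22, SCRT2 and VIPR2). FGF22, a fibroblast growth factor, stood at percentiles of 74.0 and 86.1 with I-BET151, and SCRT2, a neural zinc-finger repressor, at 50.2 and 57.5. Among 6 interferon-linked genes, IRF7 was gained, at 64.0 and 68.4, IFITM1 was called in I-BET151 replicate 2 alone, and the other 4 were not called. In none of these gene lists was a promoter region lost, and of all end promoters only 7 of 437 (1.60%) were.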

How the data were processed

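The authors aligned reads to hg38 with Bowtie2 (2.2.5) and called peaks per library with MACS2 (2.1.2), and no control library is named. Each deposited list holds, for each summit, a fold enrichment (a ratio), the p-value and q-value as −log10, a display score (not used) and an offset. The methods state a p-value of 1e-05, but between 7.53% and 10.9% of the peaks of each deposited list had a weaker one. The shortest peak was 200 bp in the replicate 1 lists, 233 bp in DMSO replicate 2 and 256 bp in I-BET151 replicate 2, and whether calling settings differed was not tested. Read numbers at summits were solved from fold and p-value (100% of peaks within 0.001 of −log10 p) and reads per library from the background. They carry counting error, larger in the shallower I-BET151 libraries.

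The 1021 peaks outside chromosomes 1 to 22 and X were not used, and no peak passed the end of its hg38 chromosome. Merging, ranking and annotation (GENCODE release 44) used Python 3.11.15. With limma 3.58.1 in R 4.3.3, normal scores of each library's ranks among the shared regions were fitted genome-wide with Benjamini-Hochberg adjustment. Merging, read recovery and the rank test were checked on simulated data. Single values per library were compared by two-sided exact permutation tests. The regions named were the 5 strongest shared, the 8 strongest gained and lost, up to 8 higher and lower in rank, the outermost of each end and the listed promoters. The members and lists were chosen with earlier results of these data known. Same-numbered lists did not deviate together (r = −0.165 over the 490 shared end regions), so the numbers were not used as pairs. Alternatives were other thresholds, equal numbers of peaks, distances, overlaps, rankings, blocks and left-out libraries. The sequences of the telomere-repeat summits are not reported here.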

Additional observations from a re-analysis of the deposited data

How the results depend on the processing

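Over all end regions the gained share stayed below and the lost share above the rest of the genome in every setting tried. The counts moved. Gained end regions numbered 79 with equal numbers of peaks per list, 107 within 500 kb, 673 within 2 Mb and 322 to 712 when a library was left out. Lost end regions numbered 26 at a −log10 p of at least 10, 64 within 500 kb, 284 within 2 Mb and 151 to 815 with a library left out. The gained percent of the ends minus the rest was −5.90, and −14.6 to −5.58 with a library left out, and the lost percent was 3.29, and 3.51 to 11.6. End regions higher in rank numbered 29 at a −log10 p of at least 10, 11 within 500 kb, 50 within 2 Mb, 0 ranked by −log10 p and 3 to 39 with a library left out. Those lower in rank numbered 11 to 43 with a library left out. Ranked by reads over background without the added read, a choice made after seeing the data, 49 were higher and 26 lower, and without repeat regions 5 were lower.

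With the replicate block, the share of end peaks differed by −0.767 and their median percentile by 12.5, as it must with 2 pairs, and 21 regions were higher and 22 lower. With the pairs crossed, a choice also made afterwards, as same-numbered lists deviated in opposite directions, 42 were higher and 34 lower. Changes of −log10 p threshold, distance, number of peaks and libraries alter how many regions are tested, and the cause of the other shifts was not tested. The fold at repeats rests on the deposited placement of reads, and with 2 libraries per group no exact p below 0.333 was possible.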

Other observations

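The CTCF consensus was found around the summit of 38 end regions (1.45%) and of 3074 regions of the rest (1.904%). Of the 38 end regions 9 were gained and 0 lost, against 1170 and 15 of the 3074 in the rest. The 9 gained regions had a median percentile of 62.6 and 57.9 in the I-BET151 lists, and 5 of them lay between genes.

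The 61 regions at the ends of chromosome X, which lie in or next to the pseudoautosomal sequence, were called in 43 and 23 cases in the DMSO lists and in 25 and 30 cases in the I-BET151 lists. Of these 8 were gained and 2 lost, and limma called 0 of the 14 shared ones. Short and long arm ends of all chromosomes had nearly equal shares of lost regions, 5.59% of 1199 and 5.62% of 1424, and gained shares of 11.9% and 10.5%.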
